A study of Arabidopsis thaliana with 12 samples.

Results

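The comparison described here sets leaves of the Arabidopsis thaliana mutant cs26 against leaves of wild type when both were grown in long days. Its members are the 3 cs26 and the 3 wild-type arrays that the labels place in long days, 6 of the 12 arrays of the series, and every probe set on them other than the manufacturer's controls. The mutant is the insertion line SALK_034133, and the wild type is the accession Col-0. Long-day plants of both genotypes stood in soil with Hoagland medium under 16 h of light at 20 °C and 8 h of dark at 18 °C and were 3 weeks old when their leaves were taken. The other 6 arrays hold cs26 and wild type in short days (8 h of light, 16 h of dark, the same temperatures), where plants were 5 weeks old, so photoperiod and age cannot be told apart between the 2 sets. The mutant is a single insertion line, which limits it as a model of the gene's loss. The design text calls the 3 arrays of a group biological replicates, and the study asked which genes differ between the genotypes in each photoperiod.

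CS26 (AT3G03630) encodes a chloroplast member of the O-acetylserine(thiol)lyase family, the enzymes that join sulfide to O-acetylserine to make cysteine. Unlike its relatives, CS26 is known as an S-sulfocysteine synthase, which uses thiosulfate in place of sulfide. Chloroplasts in light make reactive oxygen species, and their redox state reaches the nucleus through retrograde signals that change defence, stress and photosynthesis genes. No probe set names CS26 alone in the annotation used here, so its own transcript could not serve as a check of the labels.

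All values are deposited log2 RMA values, in which 1 unit is a 2-fold step. A probe set is called when its adjusted p from limma is under 0.05 (Benjamini-Hochberg over 22746 probe sets), and "rose" and "fell" are used only of called probe sets. In long days 5597 probe sets were called (24.6% of those tested), of which 2908 were higher (12.8%) and 2689 lower (11.8%) in cs26. A called change of at least 2-fold was found upwards in 724 probe sets (3.18%) and downwards in 581 (2.55%). Large changes were more often rises than falls, with 210 probe sets at least 4-fold higher and 71 at least 4-fold lower, and 53 at least 8-fold higher and 14 at least 8-fold lower. The 3 values of cs26 and the 3 of wild type did not overlap in 8699 probe sets (38.2%). With the probe sets split by mean level into 4 bins of equal size, calls were rare in the dimmest bin, with 1.48% higher and 0.703% lower, and frequent in the brightest, with 23.5% higher and 20.7% lower. The plot of effect against adjusted p shows both sides.

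**Figure D1:**
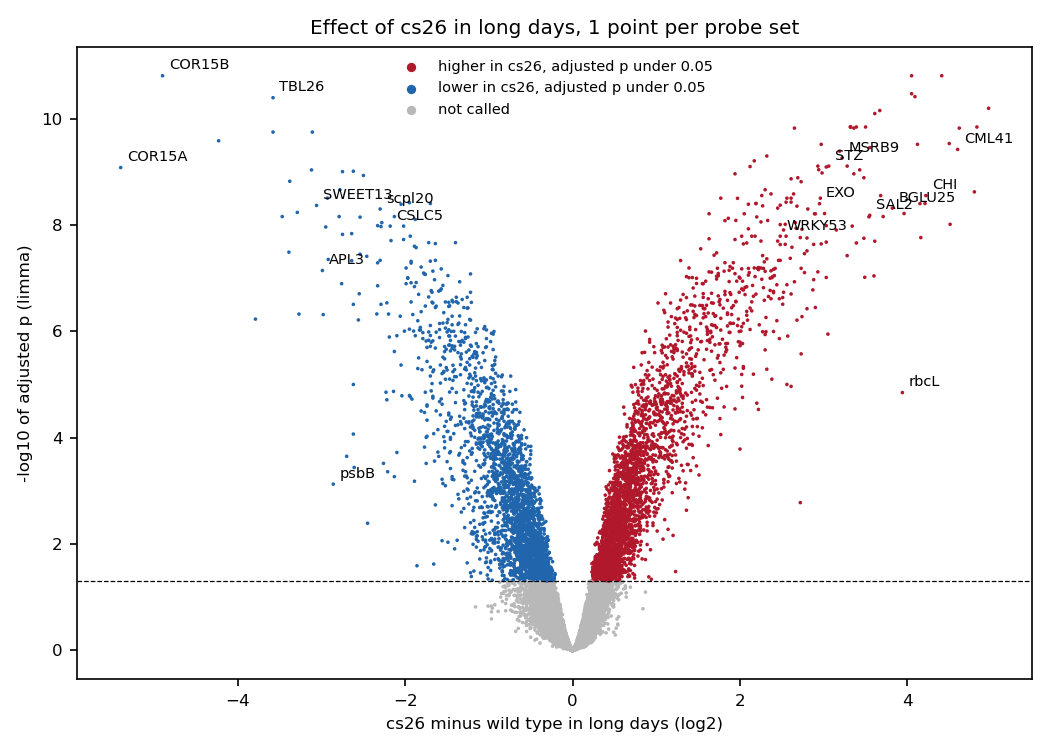
Effect of cs26 in long days (x axis, cs26 minus wild type, log2) against the negative log10 of the adjusted p from limma (y axis), with 1 point for each of 22746 probe sets; red points are higher in cs26, blue points lower, grey points not called, and the dashed line marks an adjusted p of 0.05. CML41 lies at 4.60 and COR15A at -5.40.

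The leaf mesophyll markers (RCA, LHCB4.1, LHCB4.2 and LHCB4.3) averaged 12.22 to 12.32 on the cs26 arrays and 12.63 to 12.64 on the wild-type arrays, and of these 4 genes LHCB4.2 alone was called (-1.32), with a list median of -0.09. The root markers stayed between 4.69 and 5.11 and xylem markers between 4.44 and 4.86 in both. The mean of the 27 Bacillus control probe sets was 6.19 to 6.37 on cs26 arrays and 6.68 to 6.81 on wild-type arrays. The 25S ribosomal RNA control probe set read 9.64 on wild-type replicate 2, against 4.97 to 5.12 on the other long-day arrays. The ubiquitin control's 3' minus 5' signal was 1.46 to 1.49 on cs26 arrays and 1.28 to 1.35 on wild-type arrays, without overlap. The same measure overlapped for the actin control (2.6 to 3.18 on cs26 arrays, 2.87 to 3.52 on wild-type arrays). It also overlapped for the GAPDH control (0.87 to 0.92 and 0.83 to 1.32). The part that these technical differences had in the results was not tested. Without wild-type replicate 2, 2497 probe sets were higher and 2170 lower. In whole leaves, fewer cells of a type and less RNA per cell cannot be told apart.

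Calcium signalling genes stood high in cs26. Of 9 measured genes for calcium sensors and calcium-binding proteins, which include the calreticulin CRT1b, 6 rose and 0 fell, with a median of 0.80. Over the 13356 genes that a probe set names alone 11.6% rose, 10.3% fell and the median was -0.01. The list counts below also stand against these shares. CML41, a calmodulin-like protein known from responses to bacterial flagellin, read 9.40, 8.97 and 9.43 in cs26, against 4.57, 4.83 and 4.60 in wild type. Every cs26 value lay more than 4 units above every wild-type value, and the rise was 4.60 ± 0.148 (SE, n = 3 arrays per genotype), 24.3-fold, with an adjusted p of 3.75e-10 from limma. The related genes CML23 (1.14 ± 0.184), CML37 (0.88), CML43 (0.80) and CML38 (0.69) rose less, and their wild-type means lay between 3.86 and 5.28. CML42, at a wild-type mean of 8.37, measured 0.16 and was not called. Calcium-permeable channels moved the same way in part. Of 8 glutamate receptor-like channel genes, 3 rose and 0 fell: GLR2.8 by 1.71 ± 0.125, GLR1.4 by 1.64 ± 0.187 and GLR2.7 by 1.10 ± 0.234. GLR3.3 (0.09) and GLR3.6 (-0.08), which are known from long-distance wound signals, were not called.

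Secreted defence proteins rose as well. Of 19 chitinase, defensin, thionin and related genes, 8 rose and 0 fell. CHI (AT2G43570), a chitinase, had 10.38, 10.39 and 10.33 in cs26, against 6.27, 5.95 and 6.22 in wild type. Its cs26 values lay within 0.06 of each other, and its rise of 4.22 ± 0.17 was the largest of the list. PDF1.2, a plant defensin that jasmonate and ethylene induce, read 11.26, 11.37 and 11.25 in cs26, against 8.26, 8.46 and 8.51 in wild type, a rise of 2.88 ± 0.15. PDF1.2b rose by 2.90 ± 0.204, but its probe set type (x_at) may cross-hybridise with related transcripts. The osmotin gene OSM34 rose by 2.0 ± 0.122, from a wild-type mean of 4.32. THI2.2, a thionin, measured 0.80 and ChiC, a chitinase, 0.72, and both passed the test. LCR68, at a wild-type mean of 10.31, measured -0.10 and was not called. At a minimum of 2-fold the list keeps 4 of its 8 calls and the calcium list 3 of its 6.

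Several regulators of defence and senescence were higher in cs26. Among 7 WRKY transcription factors, 3 rose and 1 fell. WRKY53, which promotes leaf senescence, had 9.75, 9.48 and 9.65 in cs26 and 7.26, 7.31 and 6.88 in wild type. That rise of 2.48 ± 0.124 was 5.57-fold (adjusted p = 1.61e-08, limma). WRKY47 rose by 2.08 ± 0.152 and WRKY6 by 1.36 ± 0.0913, whereas ZAP1 (WRKY1) fell by 0.79. Of 4 salicylate and systemic resistance genes, GRX480, a glutaredoxin induced by salicylate, rose by 2.55 ± 0.127 and the glucosyltransferase gene UGT76B1 rose by 0.97. SAG101, a lipase-like partner in immune signalling, measured 0.50 and missed the threshold (adjusted p = 0.0951, limma). BIK1, a kinase below several immune receptors, rose by 1.17 ± 0.129. Of 13 ubiquitin ligase genes of the PUB and ATL families, PUB23 (0.84) and PUB24 (0.73), which dampen immune responses, rose and 1 fell. Those counts lay near the shares over all genes, 11.6% higher and 10.3% lower. The jasmonate list was split, with 3 of its 7 genes higher and 3 lower: beside PDF1.2, PDF1.2b and OPCL1 (0.52), a step of jasmonate synthesis, the transcription factor genes MYC4 (-1.5 ± 0.192) and MYC3 (-0.36) and the methyltransferase gene JMT (-0.51) fell. MYC4 read 5.65, 5.33 and 5.31 in cs26 and 7.02, 6.94 and 6.82 in wild type, with no overlap.

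Redox-linked genes held a few large rises. MSRB9, a methionine sulfoxide reductase, which repairs oxidised methionine, read 8.59, 8.79 and 8.81 in cs26, against 5.37, 5.49 and 5.67 in wild type. The rise was 3.22 ± 0.107, 9.32-fold, and it was the only one among the 5 methionine sulfoxide reductase genes measured, since MSRB5 fell by 0.38 and the other 3 were not called. STZ (ZAT10), a zinc finger factor that many oxidative stresses induce, read 9.37, 9.53 and 9.29 in cs26, against 6.34, 6.25 and 6.43 in wild type (3.06 ± 0.106). UPB1, a regulator of peroxidase genes, rose by 0.82. In the antioxidant list 0 of 8 genes were called higher and 1 was lower. That gene, VTC4 (-0.58), acts in ascorbate synthesis and does not itself remove reactive oxygen. Over all genes 11.6% rose and 10.3% fell, so counts this small do not stand apart. Glutathione S-transferases, often induced by oxidative stress, had 0 of 14 higher and 4 lower, with GSTU26 at -0.92 and GSTU16 at -0.61. Of the 8 thioredoxin genes 3 rose and 0 fell, led by TY1 at 0.66 and TO2 at 0.62. SAL2, an inositol polyphosphate phosphatase related to SAL1 of the chloroplast stress signal, rose by 3.55 ± 0.16, with 8.95, 8.40 and 8.74 in cs26 and 5.07, 5.22 and 5.15 in wild type. The alternative NADH dehydrogenase gene NDB2 of mitochondria rose by 0.96, and the isocitrate dehydrogenase subunit gene IDH-VI by 1.03.

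**Figure D2:**
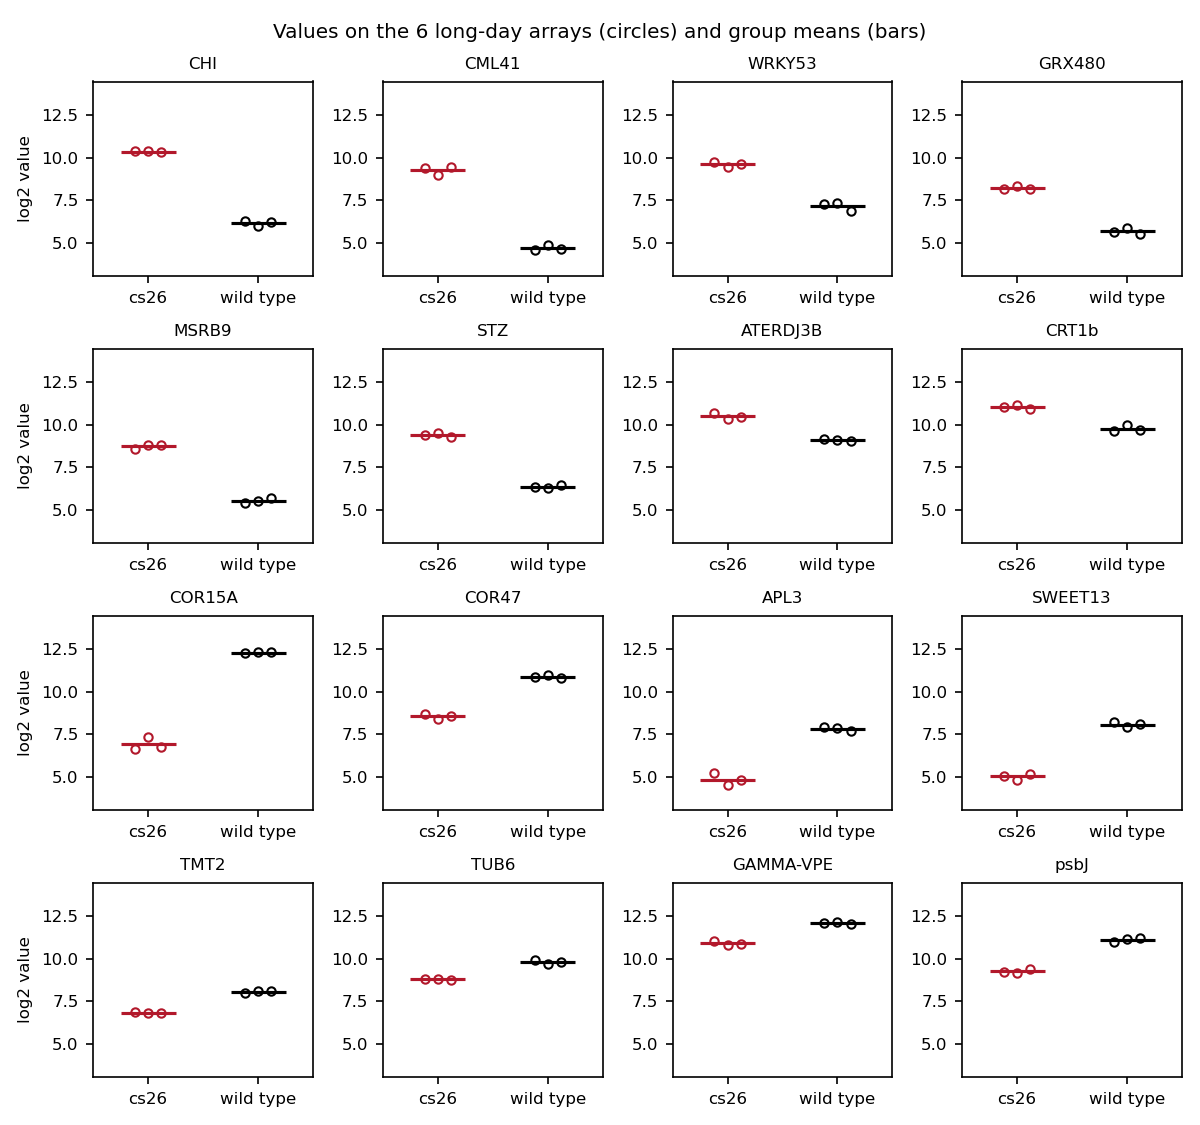
Log2 values of 16 genes on each of the 6 long-day arrays, with cs26 (red) left of wild type (black), circles for arrays and bars for means of 3 arrays. Circles of the genotypes do not overlap in any of the 16 panels, but all 16 genes were picked from called ones. Genes ranked among the largest changes, such as CHI and COR15A, were also chosen for absence of overlap. Over all probe sets 38.2% had no overlap. CHI averaged 10.37 in cs26 and 6.15 in wild type, and COR15A 6.91 and 12.32.

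Of 16 genes for protein folding and quality control in the endoplasmic reticulum (ER), 8 rose and 0 fell, and the median was 0.49. ATERDJ3B, an ER co-chaperone needed for immune receptors to mature, read 10.72, 10.35 and 10.47 in cs26, against 9.19, 9.09 and 9.06 in wild type (1.4 ± 0.12). CRT1b, a calreticulin, which retains misfolded glycoproteins, had 11.02, 11.15 and 10.94 in cs26 and 9.62, 9.98 and 9.71 in wild type (1.27 ± 0.209). Both genes were bright and without overlap. BZIP60, the transcription factor that relays ER stress after its messenger RNA is spliced, rose by 0.73 ± 0.0958. Parts of the pathway that removes misfolded proteins rose by similar steps, namely OS9 (0.76), DER1 (0.71, by the brighter of its 2 probe sets, the other at 0.03 and not called) and DER2.1 (0.56). PDIL5-1, a disulfide isomerase, measured 0.43 and also passed the test. ATERDJ2A (-0.05) and UBC32 (-0.11) were not called. At a minimum of 2-fold 2 of the 8 calls remain.

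Single genes of specialised metabolism changed by large amounts in both directions. Over all genes 11.6% rose and 10.3% fell. Falls in the lists of glycosyltransferases and cytochromes P450 were more frequent than that, and the beta-glucosidase counts were near both shares. AT3G13610 (F6'H1), the hydroxylase that leads to scopoletin, rose by 2.45 ± 0.106, with 6.79, 6.46 and 6.74 in cs26 and 4.14, 4.22 and 4.29 in wild type. CCOAMT, a methyltransferase of phenolic compounds, rose by 1.73 ± 0.155, while in anthocyanin synthesis DFR fell by 2.13 ± 0.185 and UF3GT by 1.70 ± 0.144. DFR read 6.65, 5.99 and 6.02 in cs26 and 8.60, 8.09 and 8.35 in wild type. Of 51 UDP-glycosyltransferase genes, which attach sugars to hormones and metabolites, 5 rose and 12 fell. UGT87A2 rose by 2.61 ± 0.172, and the largest falls after UF3GT were UGT76E11 (-1.46), GT72B1 (-1.28) and UGT85A5 (-1.15). Of 22 cytochromes P450, 4 rose and 5 fell, with CYP71B36 (1.76) and CYP71B23 (1.67) highest. Beta-glucosidases were split evenly, 3 higher and 3 lower of 22. BGLU25 read 11.59, 10.77 and 11.24 in cs26, against 7.53, 7.38 and 7.23 in wild type (3.82 ± 0.166). PYK10, the main beta-glucosidase of ER bodies, rose by 2.69 ± 0.1 from a wild-type mean of 3.91, whereas BGLU33 (-2.10) and BGLU40 (-1.82) fell. In glucosinolate metabolism 0 of 6 rose and 3 fell, with AOP1 at -1.60 ± 0.234 and the transporter gene GTR1 at -0.52.

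BGLU25 is the next gene to CS26 on chromosome 3. Of the 10 genes on each side of CS26, 9 had a probe set of their own. BGLU25 stood apart from the other 8, of which AT3G03610 measured 0.51, AT3G03590 -0.52 and AT3G03550 -0.29, all called, and the other 5 lay between -0.21 and 0.24 and were not called. Whether the insertion itself bears on its neighbour was not tested.

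Sulfate assimilation and cysteine synthesis is the pathway of the mutated gene. Of 9 measured genes 1 rose and 2 fell, all by small amounts, and 0 were called without wild-type replicate 1. Counts this small do not stand apart from the shares over all genes, 11.6% higher and 10.3% lower. The ATP sulfurylase genes APS3 and APS4, which begin sulfate assimilation, measured -0.36 and -0.30, and LCD, a cysteine desulfhydrase, 0.27. SIR, sulfite reductase, had a mean of 10.21 in cs26 and 10.38 in wild type and was not called.

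Cold- and drought-responsive genes held the largest falls. Of 15 genes of this list 8 fell and 1 rose. COR15A, a chloroplast protein that protects membranes in cold, read 6.65, 7.36 and 6.73 in cs26, against 12.31, 12.32 and 12.32 in wild type. The fall was 42.3-fold (-5.40 ± 0.19, adjusted p = 8.23e-10, limma), and its neighbour COR15B fell 29.8-fold (-4.90 ± 0.101). COR47, a dehydrin, had 8.69, 8.41 and 8.58 in cs26 and 10.87, 11 and 10.79 in wild type (-2.33 ± 0.11). HIS1-3, a histone H1 induced by drought, fell by 1.19, LTI30 by 0.95 and AT1G54410 (HIRD11), a dehydrin, by 0.86. AT2G46140 (LEA27) rose by 0.70. COR27, a cold-induced clock regulator at a wild-type mean of 8.99, measured 0.06 and was not called.

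Of 8 genes for starch and sucrose metabolism 6 fell and 1 rose, with a median of -1.20. APL3, part of the ADP-glucose pyrophosphorylase that commits glucose to starch, read 5.20, 4.49 and 4.77 in cs26, against 7.91, 7.85 and 7.66 in wild type (-2.99 ± 0.175). SBE2.2, a starch branching enzyme, had 8.29, 7.61 and 8.04 in cs26 and 9.45, 9.20 and 9.10 in wild type (-1.27 ± 0.155). Both starch synthesis and breakdown were touched, since PWD (AT5G26570), which phosphorylates starch at night, fell by 1.17 ± 0.271 and DPE1, which recycles maltotriose, by 0.76 ± 0.138. ATSPS4F, a sucrose phosphate synthase, fell by 1.22 ± 0.385, with scattered cs26 values of 9.49, 8.44 and 9.02. That call ended without any 1 of 5 long-day arrays and held only without cs26 replicate 1. AMY1, a secreted alpha-amylase, rose by 0.55 ± 0.139, which no longer passed the test without wild-type replicate 2.

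Among 21 sugar transporter genes 5 fell and 2 rose, against 10.3% and 11.6% over all genes. SWEET13, a sucrose transporter, read 5.04, 4.82 and 5.17 in cs26, against 8.20, 7.93 and 8.07 in wild type (-3.06 ± 0.131). TMT2, a sugar importer of the vacuole membrane, had 6.88, 6.78 and 6.83 in cs26 and 7.97, 8.08 and 8.12 in wild type (-1.23 ± 0.0915), and TMT1 fell by 0.59. SWEET4 fell by 1.16, whereas SWEET2, a transporter of the vacuole membrane, rose by 1.34 ± 0.179. SWEET11, a sucrose exporter of phloem loading that served here as the phloem marker, had a mean of 11.18 in cs26 and 11.24 in wild type and was not called.

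Enzymes that burn amino acids were lower in cs26. Of 14 genes for the breakdown of branched-chain amino acids, lysine and related compounds 8 fell and 0 rose, with a median of -0.44. Without cs26 replicate 3 the count was 5. ALDH7B4, an aldehyde dehydrogenase of lysine breakdown, read 7.87, 7.55 and 7.69 in cs26, against 8.93, 8.88 and 8.75 in wild type (-1.15 ± 0.101). Both subunits of methylcrotonyl-CoA carboxylase, MCCA (-0.65) and MCCB (-0.58), which act in leucine breakdown, fell. So did genes of the chain that carries electrons from amino acid breakdown to the mitochondrial respiratory chain, with ETFBETA at -0.77, ETFALPHA at -0.52 and ETFQO at -0.53. Each of these MCC and ETF falls was under 2-fold, while that of ALDH7B4 was larger. Of the 8 aldehyde dehydrogenase genes measured, ALDH7B4 included, 4 fell and 0 rose, with ALDH3F1 at -0.88.

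Vacuolar processing enzymes mature proteins in vacuoles. BETA-VPE, best known from seeds, had 4.35, 4.93 and 4.35 in cs26 and 6.30, 6.33 and 6.37 in wild type (-1.79 ± 0.143). GAMMA-VPE, the main form of leaves, had 11.05, 10.79 and 10.88 in cs26 and 12.14, 12.15 and 12.05 in wild type (-1.21 ± 0.0829). The remaining 2, ALPHA-VPE (-0.08) and DELTA-VPE (-0.01), were not called. Autophagy genes did not move as 1 group: ATG8E rose by 1.39 ± 0.19, ATG3 fell by 0.57 and ATG8F by 0.33, and the other 8 of 11 were not called.

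**Figure D3:**
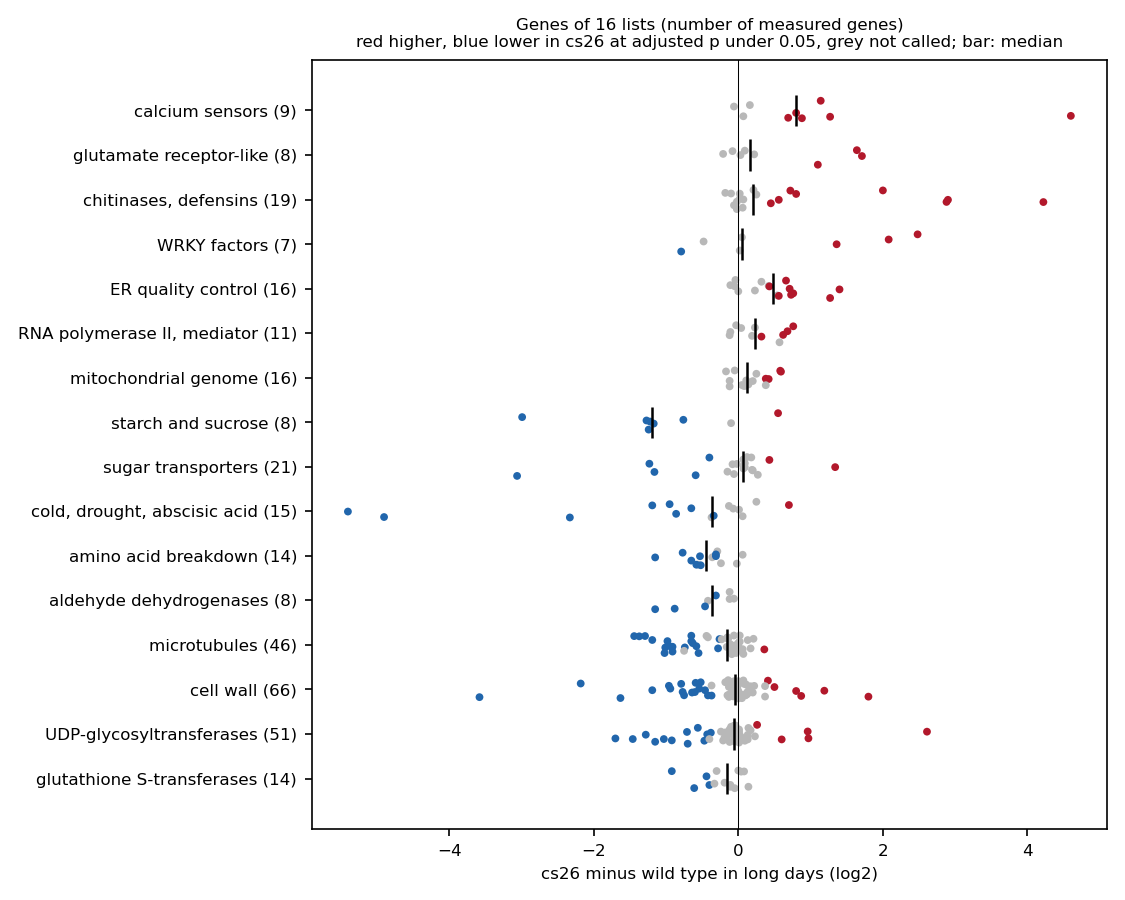
Effect of cs26 in long days (x axis, log2) for the measured genes of 16 lists, with the number of genes in parentheses; each point is a gene, red where called higher, blue where called lower, grey where not called, and the bar is the list's median. The calcium and ER lists hold no blue point, and the amino acid breakdown, aldehyde dehydrogenase and glutathione S-transferase lists no red one.

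Microtubule genes fell more often than they rose. In this list 18 of 46 genes fell and 1 rose, and the median was -0.16. TUB6, a beta-tubulin, read 8.83, 8.79 and 8.72 in cs26, against 9.94, 9.67 and 9.80 in wild type (-1.02 ± 0.131), and TUB9 fell by 1.01 ± 0.133. TRM21 (-1.44) and TRM15 (-1.37), of the family that recruits TONNEAU1 to microtubules, and the calmodulin-binding scaffold genes IQD30 (-1.29) and IQD31 (-1.19) fell more. ATMAP65-6, a microtubule bundling protein, fell by 0.93. SPR1, a microtubule end protein at a wild-type mean of 10.26, measured -0.15 and SP1L3 -0.11, and neither was called. At a minimum of 2-fold, 6 of the 18 falls remain. In the actin list 2 of 25 genes were called, both lower, NET1B (-0.98) and PIR121 (-0.83), near the 10.3% that fell over all genes. That count ran from 0 to 6 over the alternative settings. It was 0 without wild-type replicate 1 or without cs26 replicate 2, and 5 without wild-type replicate 3.

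Cell wall genes showed 17 falls and 6 rises among 66. TBL26, of the family that acetylates wall polysaccharides, read 6.93, 6.88 and 6.80 in cs26, against 10.31, 10.61 and 10.44 in wild type (-3.58 ± 0.0848). CSLC5, a glucan synthase of xyloglucan, had 5.37, 5.18 and 5.39 in cs26 and 7.57, 7.42 and 7.49 in wild type (-2.18 ± 0.104). EXLB1, an expansin-like protein, fell by 1.63, whereas the pectin methylesterase gene ATPMEPCRB rose by 1.80 ± 0.128 and XTH16, which cuts and rejoins xyloglucan, by 1.19 ± 0.164. Endoglucanases of family GH9 held opposite changes, with GH9B13 higher by 2.25 ± 0.13 and GH9C2 lower by 1.29 ± 0.122. In the list for gibberellin, brassinosteroid and cytokinin 2 of 12 genes rose and 3 fell, and in the auxin list 2 of 16 rose and 1 fell. Over all genes 11.6% rose and 10.3% fell. EXO, a brassinosteroid-induced gene of cell expansion, had 8.06, 8.11 and 8.29 in cs26 and 5.11, 5.31 and 5.20 in wild type (2.95 ± 0.125), while RR16, a cytokinin response regulator, fell by 1.75 ± 0.232 and HAT2, an auxin-induced homeobox factor, by 1.16 ± 0.0922.

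Markers of other leaf cells were measured beside these lists. Both trichome genes, which encode regulators of hair formation, fell, GIS by 1.63 ± 0.129 and TRY by 0.48 ± 0.154, and their mean was 5.92 to 6.12 in cs26 and 6.98 to 7.28 in wild type. With 1 array left out, both were called only without wild-type replicate 1, and 1 was called without any of the other 5. Of 4 guard cell lineage genes SPCH rose by 0.36, with a mean list level of 5.72 to 5.82 in cs26 and 5.56 to 5.67 in wild type. Of 4 genes marking dividing cells AUR2 rose by 0.49, and their mean was 5.17 to 5.36 in cs26 and 4.97 to 5.08 in wild type. Phloem, xylem and root markers had 0 calls among 5 genes by limma, and also 0 at an unadjusted p under 0.05. The part of a changed tissue makeup in the lists above was not tested.

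Many calls in the plastid genome lay in runs of neighbouring genes, shown in genome order in the plot of plastid genes. Of its 69 measured genes 19 fell and 6 rose, and 13 of the falls and 4 of the rises lay in the runs described here. Genes named in this paragraph beyond the fixed rule were chosen after their values had been seen. The ends of the runs were drawn from these same values, so the counts inside them are a description. From rbcL to petA, 6 measured genes in a row were higher in cs26 by 0.57 to 3.94, and 4 of them were called. rbcL, the large subunit of Rubisco, read 14.09, 13.83 and 13.99 in cs26, against 9.73, 11.18 and 9.19 in wild type (3.94 ± 0.415). accD, a subunit of the enzyme that starts fatty acid synthesis, had 12.93, 12.65 and 12.30 in cs26 and 10.05, 9.84 and 9.83 in wild type (2.72 ± 0.518), and psaI of photosystem I rose by 1.14 ± 0.257. The next 4 genes, psbJ, psbL, psbF and psbE, which form an operon for small photosystem II subunits, all fell, by 1.5 to 1.87. psbE read 9.54, 9.62 and 9.30 in cs26 and 11.22, 11.38 and 11.17 in wild type (-1.77 ± 0.106). Further along, psbB, a core antenna protein of photosystem II, had 7.25, 6.66 and 6.80 in cs26 and 9.35, 10.66 and 9.27 in wild type (-2.86 ± 0.488), and psbT beside it fell by 2.7 ± 0.395. The other genes of that operon, psbH (-0.83), petB (-0.27) and petD (0.87), were not called. From rpoA to rps19, 7 measured genes in succession fell, with effects from -2.62 to -1.19, all but rpoA encoding ribosomal proteins. rpl16 read 8.86, 7.85 and 7.21 in cs26 and 10.63, 10.77 and 10.38 in wild type (-2.62 ± 0.34). Calls outside the runs include rises of rpl20 and rps15 and falls of psaA, psaJ, atpI and atpE. Among the wild-type arrays replicate 2, which also had the high 25S reading, was the highest for rbcL, psbB and psbT.

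**Figure D4:**
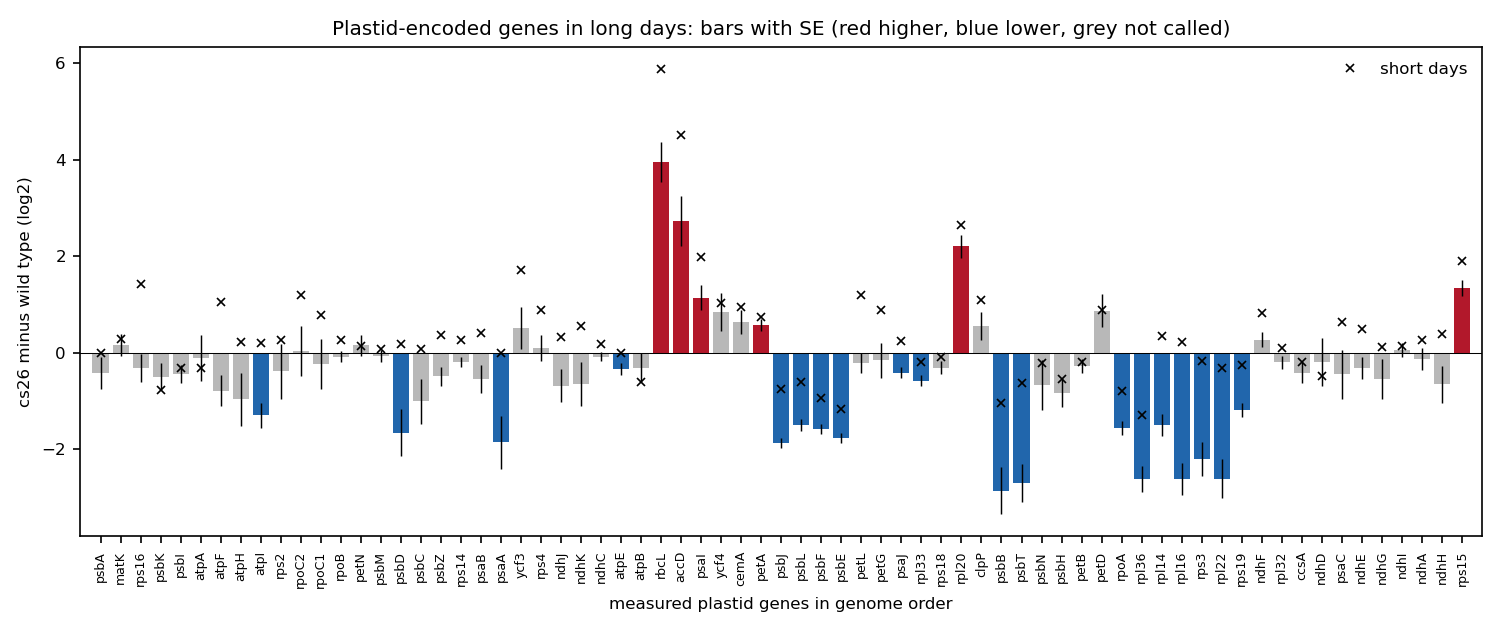
Effect of cs26 (y axis, cs26 minus wild type, log2) for 69 measured plastid genes in genome order (x axis); bars are long days with the model's SE, coloured red where called higher, blue where called lower and grey where not called, and crosses are short days. The bars from rbcL to petA point up and those from psbJ to psbE and from rpoA to rps19 point down.

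By complex, plastid-encoded photosystem II genes had 0 rises and 7 falls of 15, with a median of -1.01. Ribosomal protein genes had 2 rises and 7 falls of 15, where rpl20 (2.2 ± 0.244) and rps15 (1.34) rose. Among 7 photosystem I genes 2 fell, psaA with an effect of -1.86 ± 0.551 and psaJ with -0.42, and psaI rose. Without cs26 replicate 2 neither fall was called, and the psaA log2 fold change was also not called without wild-type replicate 1 (-1.77), wild-type replicate 2 (-1.79) or cs26 replicate 3 (-1.76). Of the 10 NDH complex genes measured 0 were called by limma and 0 had an unadjusted p under 0.05, and their effects ran from -0.69 to 0.27. Of 6 ATP synthase genes 2 fell, atpI by 1.30 and atpE by 0.34. psbA, which codes for the light-damaged D1 protein, measured -0.42 ± 0.335 and was not called. psbM, at 13.52 in cs26 and 13.59 in wild type, was not called either. Fits on the 6 long-day arrays alone called 11 plastid genes higher and 30 lower. The labelling protocol is given as the manufacturer's standard, which primes on poly(A) tails, and most plastid transcripts lack long tails. The part of tail length in these values was not tested. In the mitochondrial genome 4 of 16 genes rose and 0 fell, by at most 0.59 (ccb452).

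Of 23 nuclear genes for photosystems and thylakoids 1 rose and 3 fell, while 11 had an unadjusted p under 0.05. The shares over all genes were 11.6% higher and 10.3% lower. LHCB4.2, an antenna protein of photosystem II, read 10.73, 10.79 and 10.51 in cs26, against 12.06, 12 and 11.94 in wild type (-1.32 ± 0.0896), whereas its close relative LHCB4.1 measured -0.07 at a wild-type mean of 13.53. RCA, Rubisco activase, measured 0.06 and was not called. In tetrapyrrole synthesis 4 of 10 genes rose by small steps, HEME2 (0.61), HEMB1 (0.43), GSA1 (0.38) and HEME1 (0.36), all in the part of the pathway before chlorophyll and heme diverge, and PORB, which makes chlorophyllide in light, fell by 1.04 ± 0.117. Of 24 genes for plastid transcription and RNA maturation 0 rose and 5 fell, with CRR21 at -0.51 and NdhS, a subunit of the NDH complex that the list takes in by its synonym CRR31, at -0.97 ± 0.0772. Of 11 genes for RNA polymerase II and mediator in the nucleus 4 rose and 0 fell, NRPB12 (0.76) the most.

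Other lists held single large changes, and their counts stand against 11.6% higher and 10.3% lower over all genes. Of 23 bZIP factors 3 rose and 1 fell, and HYH, a factor of light responses, had 6.11, 6.10 and 6.11 in cs26 and 4.73, 4.32 and 4.36 in wild type (1.64 ± 0.155). GI, a clock protein of photoperiodic flowering, fell by 1.05 ± 0.226. In nitrogen transport AT3G21670 (NPF6.4) fell by 1.47 ± 0.119. The tetraspanin gene TET8, whose protein marks secreted vesicles, rose by 1.48 ± 0.108 while TET3 fell by 1.27 ± 0.12. Among 29 serine carboxypeptidase-like genes 3 rose and 5 fell, and scpl20 read 5.98, 5.97 and 6.12 in cs26 and 8.32, 8.33 and 8.31 in wild type (-2.30 ± 0.1). Iron homeostasis had 0 of 12 genes higher and 3 lower, with bHLH34 at -0.76 and bHLH115 at -0.61, both regulators of iron uptake. The 25 DNA repair genes had 0 rises and 3 falls, and the 26 chromatin genes 2 rises and 0 falls, none of them clearly above these shares. ASF1B, a histone chaperone, was the larger of the 2 rises at 0.56. Heat shock genes had 0 calls among 3 by limma and 0 at an unadjusted p under 0.05.

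Several of the largest changes fell on loci that the gene table leaves without a name. AT2G18690 had 10.82, 10.74 and 10.69 in cs26, against 6.12, 5.83 and 6.44 in wild type, a rise of 4.62 ± 0.133. AT3G01830 had 8.12, 8.33 and 8.35 in cs26 and 3.65, 3.97 and 3.64 in wild type (4.51 ± 0.213). AT2G33850 had 8.06, 8.04 and 7.81 in cs26 and 3.98, 3.90 and 3.87 in wild type (4.05 ± 0.0839). The wild-type values of AT3G01830 and AT2G33850 all lay under 4.3, the highest mean level in the dimmest bin of probe sets. On the falling side, AT1G80130 had 6.59, 6.49 and 6.36 in cs26 and 10.20, 9.86 and 10.12 in wild type (-3.58 ± 0.106).

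The long-day effect was set against the short-day effect by testing the difference of the 2. That difference was called in 6268 probe sets (27.6%), and in short days alone 3806 were called (16.7%). Of the 724 probe sets at least 2-fold higher in cs26 in long days, 479 were lower in cs26 in short days, 25 were higher and 220 were not called there, and the difference was called in 714. Of the 581 at least 2-fold lower, 143 were higher in short days, 35 were lower and 403 were not called, and the difference was called in 562. Inclusion in these sets used the long-day effect, so the counts are a description. The effect on CHI was 4.22 in long days and -3.93 in short days, CML41 4.60 and -2.08, and SAL2 3.55 and -2.98. The ER list had 8 rises and 0 falls in long days, against 0 rises and 5 falls in short days, with ATERDJ3B at 1.4 and -1.07. The cold genes COR15A and COR15B, with -5.40 and -4.90 in long days, measured 0.80 and 0.98 in short days.

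**Figure D5:**
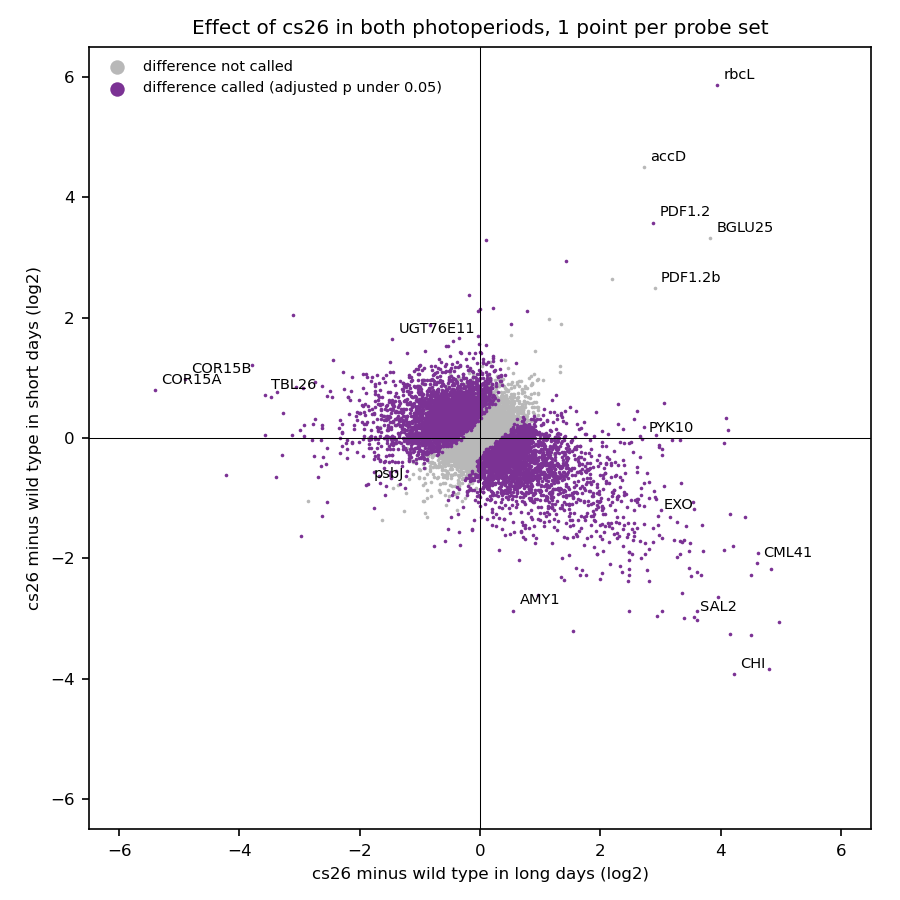
Effect of cs26 in long days (x axis) against its effect in short days (y axis), both as cs26 minus wild type in log2, with 1 point per probe set; purple points have a called difference between the photoperiods. CHI lies at 4.22 and -3.93, and BGLU25 at 3.82 and 3.32.

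A few large long-day changes had the same direction in both photoperiods. BGLU25 rose by 3.82 in long days and by 3.32 in short days, and that difference was not called (0.50, adjusted p = 0.143, limma). PDF1.2b measured 2.90 and 2.49, with no called difference, and PDF1.2 2.88 and 3.58, with one. In the plastid genome rbcL rose by 3.94 in long days and by 5.87 in short days, accD 2.72 and 4.50, and rpl20 2.2 and 2.64, and of these 3 the difference was called for rbcL alone. The falling run from psbJ to psbE was also below 0 in short days, at -1.16 to -0.61, and the difference between the photoperiods was called for psbJ (-1.11), psbL (-0.89), psbF (-0.65) and psbE (-0.61). The ribosomal genes rpl16 (0.22), rpl22 (-0.31) and rps3 (-0.18) had no called effect in short days, and each differed from its long-day effect. PYK10 (-0.01 in short days), AT2G33850 (-0.08), COR47 (0.00) and scpl20 (0.24) had called effects in long days and not in short days, and the test of the difference passed for each. Plant age differed with photoperiod in all of these comparisons.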

How the data were processed

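Leaf RNA was hybridised to 12 Affymetrix ATH1 arrays. The deposited values are log2 signals made with RMA in the affy package, per the submitters' processing notes, which name no version. RMA sets all arrays to 1 distribution, so values are relative within the series. Of 22810 probe sets, 64 manufacturer controls were left out. In the platform annotation 13513 probe sets name 1 gene (13356 genes), 503 several and 8730 none, and 13436 were found in the RefSeq gene table for TAIR10.1. limma 3.58.1 in R 4.3.3 fitted a mean per group over all 12 arrays with lmFit and eBayes, and p-values were adjusted (Benjamini-Hochberg) over 22746 probe sets. Tables used Python 3.11.15 with pandas 2.3.3. The fit was tested on simulated data.

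The comparison and the gene lists were chosen with earlier results of these data known. To 54 lists 32 were added after the annotation had been read, and 36 wrong name matches were dropped, 14 of them by name after their values had been seen. A gene with several probe sets is given by its brightest. Genes are named from those that a rule yields, not all of which are printed: the 15 largest rises and falls, the 10 largest photoperiod differences, and up to 5 called and 2 brightest uncalled members of each list. Overlap of cs26 and wild type in long days barred a probe set from the rankings of rises, falls and differences. Naming several genes or none barred it as well. For genes that entered by these rankings, absence of overlap was thus a condition of choice and not a finding. Which of its loci without a gene name to print was chosen after their values were seen, as were AMY1, AT1G54410, AT2G46140, ATMAP65-6, CML38, ChiC, DER2.1, DPE1, ETFALPHA, LHCB4.3, MYC3, PDIL5-1, TUB9, petD, psbF, psbH, psbL, rps15, rps19 and the neighbours of CS26. Alternatives were other normalisations, variance models, filters, thresholds, a replicate block and each array left out. Promoter motifs were not analysed here.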

Additional observations from a re-analysis of the deposited data

Results flagged for a closer look

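The effect of cs26 in long days minus its effect in short days was tested with limma, and 6268 probe sets passed at an adjusted p under 0.05. The genes named above for which this difference passed are given here with the difference in log2, where a positive value means a higher cs26 effect in long days. Plant age cannot be told apart from photoperiod in any of them.

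Among calcium genes the differences were 6.68 for CML41, 2.49 for CML37, 2.09 for CML38, 1.75 for CML23, 1.03 for CML43, 0.53 for CML42 and 1.70 for CRT1b. The channel genes had 3.20 for GLR1.4, 2.38 for GLR2.8 and 1.72 for GLR2.7. Secreted defence proteins had 8.15 for CHI, 2.40 for OSM34, 0.94 for THI2.2 and 0.85 for ChiC, and PDF1.2 had -0.70. Defence regulators had 4.50 for WRKY53, 4.12 for GRX480, 3.58 for UGT76B1, 2.67 for WRKY47, 1.80 for PUB24, 1.78 for BIK1, 1.68 for WRKY6, 1.21 for PUB23, 1.04 for SAG101 and 0.54 for OPCL1. On the negative side stood MYC4 at -1.97, JMT at -1.34 and ZAP1 at -1.12.

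Redox-linked and mitochondrial genes had 6.53 for SAL2, 4.92 for MSRB9, 3.86 for STZ, 1.65 for NDB2, 1.34 for IDH-VI, 0.97 for TO2, 0.87 for UPB1, 0.65 for TY1 and 0.44 for MSRB5, against -0.92 for GSTU26, -0.81 for GSTU16 and -0.68 for VTC4. All ER genes that passed were positive, with 2.47 for ATERDJ3B, 1.38 for BZIP60, 1.24 for DER2.1, 1.18 for OS9, 1.03 for DER1 and 0.62 for PDIL5-1. In specialised metabolism the values were 4.82 for AT3G13610, 3.16 for CYP71B23, 3.09 for UGT87A2, 2.77 for CCOAMT, 2.71 for PYK10 and 1.69 for CYP71B36. Lower effects in long days were found for UGT76E11 at -3.09, BGLU33 at -2.25, DFR at -2.04, BGLU40 at -1.96, UF3GT at -1.61, UGT85A5 at -1.33, GT72B1 at -1.27 and AOP1 at -1.21. Of the genes near CS26, AT3G03610 had 0.90 and AT3G03550 -0.47.

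Cold and drought genes had -6.20 for COR15A, -5.87 for COR15B, -2.33 for COR47, -0.83 for HIS1-3 and -0.77 for AT1G54410, and AT2G46140 had 1.44. Starch genes had -3.12 for APL3, -2.65 for ATSPS4F, -2.00 for PWD (AT5G26570), -1.88 for SBE2.2 and -1.33 for DPE1, and AMY1 had 3.42. Sugar transporters had -3.91 for SWEET13, -2.08 for TMT2, -0.97 for SWEET4 and 0.93 for SWEET2. Amino acid breakdown had -1.09 for MCCB, -1.08 for ALDH7B4, -0.89 for ETFBETA, -0.87 for MCCA and -0.81 for ETFQO. The aldehyde dehydrogenase gene ALDH3F1 had -0.81. BETA-VPE had -2.80 and GAMMA-VPE -1.12, while ATG8E had 2.58.

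Cytoskeleton genes had -1.97 for TRM21, -1.95 for IQD31, -1.80 for TRM15, -1.75 for NET1B, -1.59 for IQD30, -1.55 for PIR121, -1.46 for TUB6 and -0.88 for ATMAP65-6. Cell wall and growth genes had -4.30 for TBL26, -2.58 for CSLC5, -1.74 for GH9C2, -1.73 for RR16 and -1.72 for HAT2, against 4.23 for EXO, 2.84 for ATPMEPCRB, 2.64 for GH9B13 and 1.80 for XTH16. The trichome genes had -2.20 for GIS and -1.45 for TRY, and AUR2 had 0.53.

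In the plastid genome the differences were -2.84 for rpl16, -2.30 for rpl22, -2.06 for psbT, -2.02 for rps3, -1.93 for rbcL, -1.50 for atpI, -1.11 for psbJ, -0.94 for rps19, -0.89 for psbL, -0.78 for rpoA, -0.65 for psbF, -0.65 for psaJ and -0.61 for psbE. The mitochondrial gene ccb452 had 0.98. Nuclear genes for photosynthesis and transcription had -1.62 for CRR21, -1.25 for LHCB4.2, -0.93 for NdhS, -0.81 for PORB, -0.51 for LHCB4.3 and 0.65 for NRPB12. The remaining genes had 2.33 for TET8, 1.49 for HYH, -2.54 for scpl20, -1.93 for AT3G21670, -1.63 for TET3, -1.57 for GI, -1.31 for bHLH34 and -0.78 for bHLH115. The unnamed loci had 6.79 for AT3G01830, 6.53 for AT2G18690, 4.13 for AT2G33850 and -3.63 for AT1G80130.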

How the results depend on the processing

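No named gene that was called changed direction under any alternative run. Changes of sign in uncalled genes were not counted. At an adjusted p under 0.01, 2086 probe sets were higher and 1764 lower, and at least a 2-fold change left 724 higher and 581 lower. Of probe sets whose cs26 effect differs between long and short days there were then 4057 at an adjusted p under 0.01. With 1 long-day array left out, 2437 to 2597 were higher and 2097 to 2664 lower, and with 1 of the 12 arrays left out the photoperiod difference was called in 5352 to 6305. The share of calls that were higher ran from 49.4% to 55.5% over all settings, against 52.0% as reported. The long-day effect of all probe sets had a median of -0.01 as deposited and 0 with all array medians equal. Replicate numbers did not pair the arrays, since same-numbered arrays had correlations of their deviations between -0.31 and 0.162, and a fit with replicate number as a block called 2735 higher, 2481 lower and 5770 different between photoperiods.

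Some calls depended on single arrays, most of them of changes under 2-fold, with psaA and ATSPS4F above that. Without wild-type replicate 1, 15 named calls ended, namely APS3 (-0.29), APS4 (-0.31), AT3G03610 (0.40), ATG8F (-0.31), ATSPS4F (-1.15), CML38 (0.61), GTR1 (-0.52), LCD (0.20), MCCB (-0.50), NET1B (-0.69), PDIL5-1 (0.34), PIR121 (-0.80), TMT1 (-0.59), atpE (-0.33) and psaA (-1.77). Without wild-type replicate 2, 15 ended, of which AMY1 (0.48), AT3G03550 (-0.28), DER2.1 (0.43), MYC3 (-0.38) and TRY (-0.36) were not among those. Without wild-type replicate 3, 10 ended. Without cs26 replicate 1, 8 ended, HEME1 (0.25) among them, and CML42 (0.33) was gained. Without cs26 replicate 2, 15 ended, psaJ (-0.30) among them, and without cs26 replicate 3, 13 ended. The fit on long-day arrays alone gained petB, petD and psbH. The number of arrays limits the precision. In simulated data with 100 changed probe sets of each size among 22746, 54% of changes of 0.5 log2 and 98% of 1 log2 were recovered. Far fewer probe sets changed there than the 5597 called here, so these shares need not hold for the real comparison. A missed call of a small change says little.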
